A study of Arabidopsis thaliana with 6 samples.

Results

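Xyloglucan endotransglucosylase/hydrolase (XTH) genes encode wall enzymes that cut and rejoin xyloglucan, and 10 of them were examined in rosette leaves of *Arabidopsis thaliana* with and without the receptor kinase FERONIA (FER). The members were the rows of the deposited table with the gene identifiers of *XTH4*, *XTH9*, *XTH15*, *XTH16*, *XTH17*, *XTH18*, *XTH19*, *XTH22* (also named *TCH4*), *XTH24* and *XTH31*. All 10 were in the table of 20754 genes, and 0 were absent. They are a part of a family of 33 genes, of which 26 were in the table. The 10 genes were selected on their normalized reads and fold changes between *fer* and WT in these same libraries, so their levels and fold changes are given as a description, with no p-value. Where a member is said to be called in limma, the call uses these same values and is not evidence for the member. The 3 WT libraries were from Columbia-0 and the 3 *fer* libraries, by the study's methods, from *fer-4*, a single T-DNA insertion allele of *FER*, which has stunted rosettes. According to the labels, plants of both genotypes grew on plates in constant light for 10 days and on soil in short days (8 h light and 16 h dark) at 22 °C for 3 weeks, and leaves were taken at 4 weeks from plants with no treatment. In the paper the plants are slightly older and from long days. The labelled 10 days and 3 weeks also come to more than 4 weeks, so the ages need not conflict. For the day length the files do not settle which is right. Transcripts were counted with QuantSeq, which gives 1 read per polyadenylated transcript, from its 3′ end. Levels of genes of different length can therefore be compared directly.

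Xyloglucan is a branched glucan that coats and links cellulose microfibrils in the growing walls of flowering plants. XTH enzymes either transfer a cut xyloglucan chain to another chain, which lets a wall extend without losing strength, or hydrolyse it. Many XTH genes respond to auxin, brassinosteroid, shade or touch, and FER itself is a receptor at the plasma membrane that is known for sensing the state of the wall and for binding RALF peptides.

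The 10 genes did not move as a block. *XTH17*, *XTH4* and *XTH31* were lower in *fer*, at 12.7%, 30.8% and 43.0% of the WT mean. *XTH18* was higher, at 230.2% of the WT mean, although its coding sequence is the closest in the family to that of *XTH17*. The others lay between 51.0% and 126.2% of the WT mean with overlapping values in WT and *fer*. The values of WT and *fer* did not overlap in 4 of the 10 members, beside 31.3% of all genes. In limma over all genes, 14.6% of genes were called, that is, under an adjusted p of 0.05, and 4.52% were called as decreased. *XTH17*, *XTH4* and *XTH31* were among those called. Nothing is read from the members' calls because the same contrast was known when they were picked. The median log2 fold change was -0.13 over the 10 members and 0.10 over all genes. In these bulk leaves, fewer cells that express a gene and less transcript per cell cannot be told apart.

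The sequences before the starts of 3 close copies are shown here, because *XTH17* was lower and *XTH18* higher in *fer* while the bases just before their annotated starts are shared. No link between these sequences and the levels was tested. The 250 bases before the annotated gene start are given 5′ to 3′ from TAIR10.1 (RefSeq). The window of *XTH17* is chr1:24256804-24257053 on the plus strand, that of *XTH18* is chr4:14827212-14827461 on the minus strand and that of *XTH19* is chr4:14830225-14830474 on the minus strand. Capitals mark the longest run that *XTH17* and *XTH18* have in common.
XTH17: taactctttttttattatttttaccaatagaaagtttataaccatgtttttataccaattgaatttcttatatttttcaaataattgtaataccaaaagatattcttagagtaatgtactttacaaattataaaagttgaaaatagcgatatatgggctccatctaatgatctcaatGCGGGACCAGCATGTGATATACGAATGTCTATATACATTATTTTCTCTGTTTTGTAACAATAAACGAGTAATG
XTH18: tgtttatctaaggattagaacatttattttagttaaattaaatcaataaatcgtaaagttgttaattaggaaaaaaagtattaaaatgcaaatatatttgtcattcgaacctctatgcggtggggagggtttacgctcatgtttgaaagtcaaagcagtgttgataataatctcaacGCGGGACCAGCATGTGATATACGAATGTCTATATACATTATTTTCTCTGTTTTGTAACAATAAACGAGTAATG
XTH19: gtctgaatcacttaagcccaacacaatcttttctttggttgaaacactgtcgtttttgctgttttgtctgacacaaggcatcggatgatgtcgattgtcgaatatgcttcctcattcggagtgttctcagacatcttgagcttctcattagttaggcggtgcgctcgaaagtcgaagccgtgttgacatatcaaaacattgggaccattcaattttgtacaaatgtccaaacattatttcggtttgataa
The run of 73 identical bases ends at the start of both genes and goes on for 7 bases into them, so that it spans 80 bases in all. Over the last 100 bases *XTH17* and *XTH18* had the same base at 87 positions, and over the 150 bases before that at 40. *XTH19* shared no run longer than 9 bases with either of them, and its last 100 bases matched *XTH17* at 25 positions and *XTH18* at 26. A second annotated transcript of *XTH17* starts further into the gene. Motifs were searched on both strands in the same window of 27443 protein-coding genes, namely the auxin response element TGTCTC, the G-box CACGTG and the element CGTGTG that brassinosteroid-regulated BZR factors bind, where the last 2 can overlap. They were found before 10.9%, 6.49% and 5.37% of all genes and before 0 of the 10 members, which says only that these letters are not in this window.

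*XTH17* (AT1G65310, chromosome 1, 24257054 to 24258506, plus strand) encodes a transglucosylase that has been linked to shade-induced petiole growth and, together with XTH31, to aluminium sensitivity. Its normalized reads were 20.8, 19.1 and 27.1 in WT and 4.58, 1.19 and 2.76 in *fer*. Each *fer* library was below each WT library, and the *fer* values were low. The means were 22.3 ± 4.24 in WT and 2.84 ± 1.70 in *fer* (SD, n = 3), 7.86-fold lower, with a log2 fold change of -2.69 ± 0.45 (SE). As a description, 0.034% of all genes had a log2 fold change as low or lower. This rank is not evidence, because the gene was picked on the same values. With a pseudocount of 0.1 the log2 fold change was -3.10.

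*XTH18* (AT4G30280, chromosome 4, 14825757 to 14827211, minus strand), a gene known mainly from roots, held 8.39, 6.04 and 5.71 normalized reads in WT and 18.4, 12.7 and 15.4 in *fer*. All *fer* values were above all WT values, which were low, with means of 6.72 ± 1.46 in WT and 15.5 ± 2.86 in *fer* (SD, n = 3). The log2 fold change was 1.09 ± 0.39 (SE), and the gene was not called in limma over all genes. It was called in 1 of 11 alternative fits, limma without the trend, and in 0 of the 6 that left out a library. *XTH19* (AT4G30290, chromosome 4, 14828712 to 14830224, minus strand), its neighbour, responds to auxin and takes part in the joining of cut stems. It held 14.1, 12.1 and 14.6 normalized reads in WT and 17.4, 10.6 and 12.4 in *fer*, so that the genotypes overlapped. The log2 fold change of *XTH19* was -0.03 ± 0.36 (SE), and its sign turned when WT column 3, *fer* column 2 or *fer* column 3 was left out.

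The ratio of *XTH17* to *XTH18* within a library gives these opposite differences as 1 number. It was 2.47, 3.16 and 4.75 in the WT libraries and 0.249, 0.0939 and 0.180 in the *fer* libraries. *XTH17* was thus the more abundant of the pair in every WT library and the less abundant in every *fer* library. The coding sequences are identical at 92.2% of aligned bases for *XTH17* and *XTH18*, 89.2% for *XTH18* and *XTH19*, and 88.6% for *XTH17* and *XTH19*. Whether the authors' reads could be given to the wrong copy was examined in the last 500 transcript bases, where QuantSeq reads lie. None of the 50-base windows there occurs elsewhere in the genome without a mismatch, for any of the 10 members. A window of *XTH17* differed from the nearest stretch of *XTH18* by 5 bases in the median and by 2 at the least, and 1.11% of its windows came within 2 mismatches of *XTH18*. For *XTH17* against *XTH19* the median was 7 bases and 3.55% of windows came within 2 mismatches, and for *XTH18* against *XTH19* it was 7 bases and 5.77%, the highest share among these copies. The nearest stretch of *XTH20* to a window of *XTH17* differed by 1 base, with a median of 11 and 2.22% of windows within 2 mismatches. The authors raised the aligner's limit on mismatches to 0.6 of the read length. How their reads were split between these copies was not tested, and the level of each copy carries that limit.

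**Figure D1:**
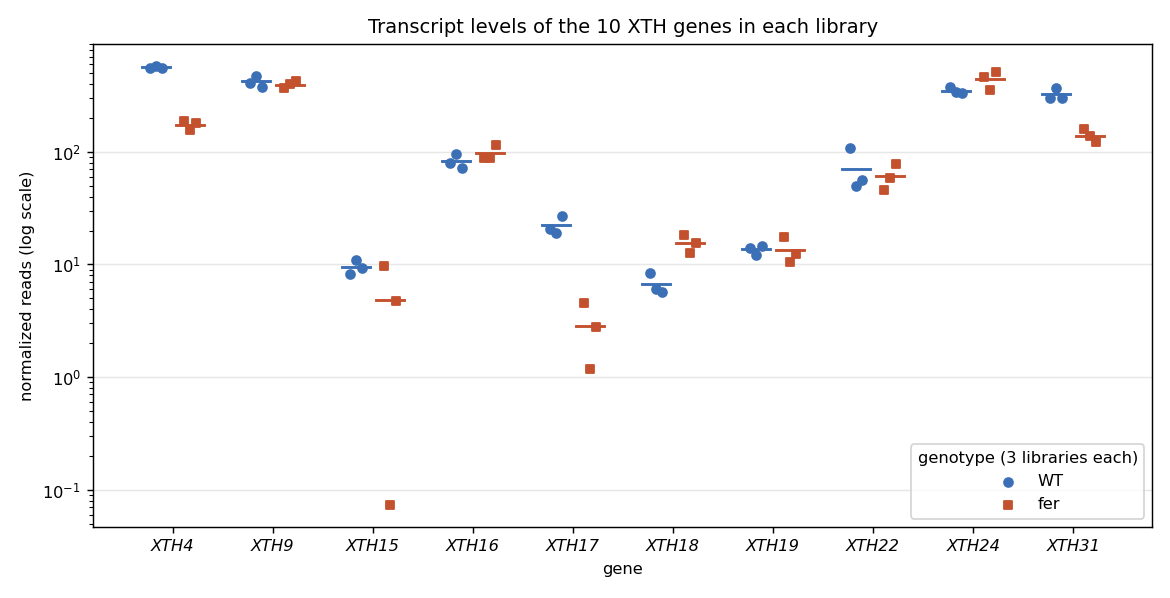
Normalized reads (log axis) of the 10 *XTH* genes in each of the 3 WT libraries (blue circles) and 3 *fer* libraries (red-brown squares), with the mean as a bar. *XTH4*, *XTH17* and *XTH31* lie lower and *XTH18* higher in each *fer* library than in any WT library, and 1 *fer* library of *XTH15* stands at 0.0733. Such a separation of the genotypes was found in 31.3% of all genes.

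*XTH4* (AT2G06850, chromosome 2, 2763449 to 2765743, plus strand) encodes a transglucosylase active in primary and secondary walls. In WT it was the most abundant of the 10, above 94.5% of all genes, with 554.8, 579.4 and 559.2 normalized reads. The *fer* libraries held 186.5, 155.6 and 178.6. The replicates of each genotype were close together and the genotypes were far apart, with means of 564.5 ± 13.1 and 173.6 ± 16.0 (SD, n = 3), 3.25-fold lower in *fer*, and a log2 fold change of -1.70 ± 0.10 (SE).

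*XTH31* (AT3G44990, chromosome 3, 16446935 to 16448844, minus strand) belongs to the group III-A enzymes, which act mainly as hydrolases. It held 300.9, 371.1 and 299.1 normalized reads in WT and 159.0, 137.6 and 121.2 in *fer*, again without overlap. The means were 323.7 ± 41.1 and 139.3 ± 18.9 (SD, n = 3), 2.32-fold lower in *fer*, with a log2 fold change of -1.21 ± 0.13 (SE). *XTH32*, the only other gene of group III-A and not one of the 10, was lower too. It held 248.1, 294.7 and 247.7 normalized reads in WT and 156.8, 154.4 and 167.2 in *fer*, and limma gave -0.72 ± 0.12 (SE) on the log2 scale at an adjusted p of 0.00023. The ratio of *XTH31* to *XTH32* was 1.21, 1.26 and 1.21 in WT and 1.01, 0.891 and 0.725 in *fer*, so that *XTH31* was the more reduced of the pair.

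*XTH9* and *XTH24* were abundant genes with small differences. *XTH9* (AT4G03210, chromosome 4, 1415617 to 1417444, plus strand), which like *XTH4* takes part in the walls of wood, held 410.9, 475.8 and 379.2 normalized reads in WT and 366.8, 396.4 and 423.5 in *fer*. Its values overlapped, and its log2 fold change of -0.09 ± 0.10 (SE) was 0.0006 when WT column 2 was left out. *XTH24* (AT4G30270, chromosome 4, 14819192 to 14820595, minus strand), first isolated as the meristem gene *MERI5*, held 373.3, 339.0 and 334.8 in WT and 459.6, 354.1 and 507.8 in *fer*. The lowest *fer* library lay among the WT libraries and the other *fer* libraries above them. The log2 fold change of *XTH24* was 0.32 ± 0.12 (SE), or 0.47 without *fer* column 2, which was the one setting of 11 in which the gene was called.

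*XTH15* and *XTH16* form a pair with 81.7% identical coding bases. *XTH15* (AT4G14130, chromosome 4, 8137020 to 8138392, minus strand), a gene induced by shade, was low, with 8.20, 11.1 and 9.34 normalized reads in WT and 9.77, 0.0733 and 4.74 in *fer*. The *fer* libraries ran from the WT level to near 0, so the log2 fold change of -1.37 ± 0.65 (SE) is poorly fixed, and it was -0.41 without *fer* column 2 and -2.24 with a pseudocount of 0.1. The 3′ end of *XTH15* overlaps that of AT4G14120 on the other strand by 382 bases, and without knowledge of the strand used in counting, reads there could be lost or given to either gene. AT4G14120 held 6.05, 12.1 and 12.5 normalized reads in WT and 8.77, 7.43 and 5.69 in *fer*. *XTH16* (AT3G23730, chromosome 3, 8550037 to 8551403, plus strand) held 80.2, 95.6 and 72.1 in WT and 87.6, 88.8 and 115.8 in *fer*, at 0.23 ± 0.17 (SE) on the log2 scale, with overlapping values.

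*XTH22* (AT5G57560, chromosome 5, 23307006 to 23308680, minus strand) is the touch gene *TCH4*, whose transcript is known to rise within minutes of handling and after auxin or brassinosteroid. WT column 1 held 107.4 normalized reads, and WT columns 2 and 3 held 49.3 and 56.2. The *fer* libraries, at 46.2, 58.2 and 78.5, ran from below the lowest WT value to within the WT range. The log2 fold change was -0.16 ± 0.26 (SE), and it was 0.17 without WT column 1 and 0.02 without *fer* column 1. Among the 10 members, variation between replicates was largest for *XTH22* and *XTH15* when set against limma's trend. Their log2 standard deviation within a genotype was 0.50 and 1.22, which is 2.09 and 1.95 times what the trend gives for genes of that level. *XTH24* followed at 1.58 times, and outside the 10 *XTH7* stood at 1.97 times. Over the 10 members this ratio ran down to 0.49, for *XTH18*.

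**Figure D2:**
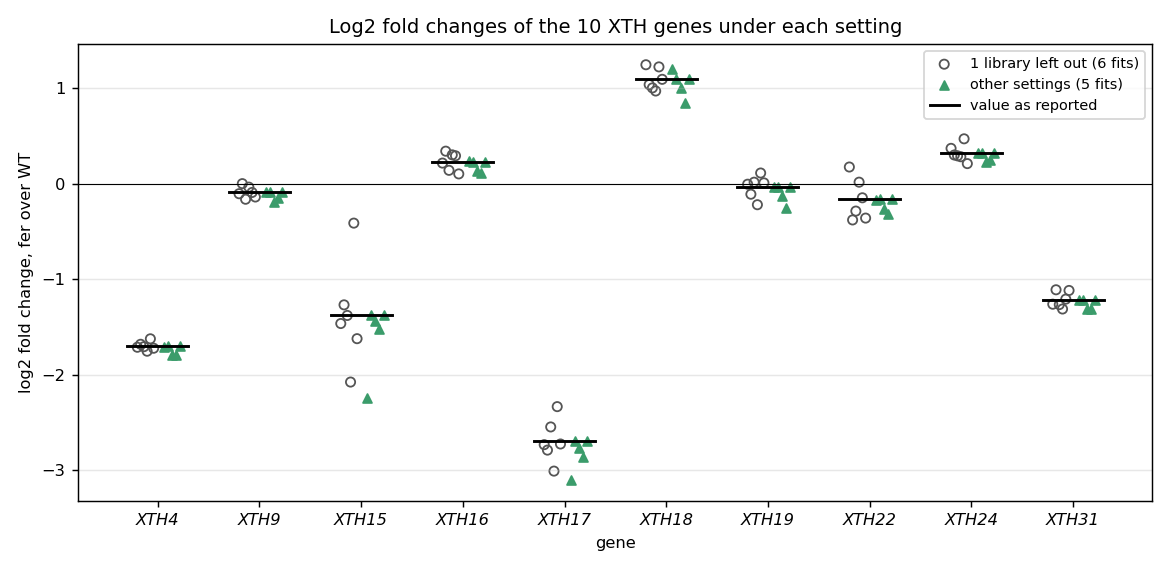
Log2 fold change of *fer* over WT for the 10 *XTH* genes as reported (black bars), with 1 library left out (circles, 6 fits) and under 5 other settings (triangles). *XTH4*, *XTH17* and *XTH31* stay below -1.1 in all 11 fits, *XTH18* stays between 0.85 and 1.24, and *XTH9*, *XTH19* and *XTH22* come to lie on both sides of 0.

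Across the whole family, taken in full and with the 10 members included, 26 of 33 genes were in the table. *XTH1*, *XTH2*, *XTH3*, *XTH12*, *XTH13*, *XTH21* and *XTH26* were not among its rows, and 9 of those in the table had means under 10 normalized reads over the 6 libraries. In limma 6 of the 26 were decreased and 2 increased at an adjusted p under 0.05. That is 30.8% of them, beside 14.6% of all genes, and 3 of the 8 are members picked with these values known. The decreased share of all genes was 4.52% and the increased share 10% with the values as deposited. These shares depend on the scaling. With median of ratios scaling, 1438 of all genes were decreased and 1520 increased, while the family counts stayed at 6 and 2. The family median was -0.13. In 9 of the 26 genes the genotypes did not overlap, where 31.3% of all genes showed none. The decreased genes were *XTH4*, *XTH17* and *XTH31* of the 10 members, and *XTH6*, *XTH7* and *XTH32*. The 5 genes of group III-B (*XTH27*, *XTH28*, *XTH29*, *XTH30* and *XTH33*) gave 0 calls, and 0 had an unadjusted p under 0.05 in limma, beside 27.1% of all genes, with log2 fold changes from -0.47 to 0.20.

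*XTH7* (AT4G37800) was the most abundant gene of the family in WT, with 1512, 1524 and 1391 normalized reads, and held 693.2, 483.3 and 670.1 in *fer*. It fell to 41.7% of the WT mean, or -1.28 ± 0.11 (SE) on the log2 scale. Its adjusted p in limma was 9.9e-08 with the trend and 0.018 without it. The spread of *XTH7* within a genotype was 1.97 times what the trend gives. *XTH6* (AT5G65730), with the coding sequence closest to that of *XTH7*, held 1057, 1112 and 1278 in WT and 820.1, 741.0 and 801.1 in *fer*. It fell by 0.54 ± 0.09 (SE) on the log2 scale, and limma gave an adjusted p of 0.00023 with the trend and 0.077 without it. Of the increased genes, *XTH20* (AT5G48070), which acts with *XTH19* in the joining of cut stems and has 84.3% of its coding bases in common with it, was at the floor of 3 normalized reads or fewer in WT, at 0.147, 0.0054 and 1.25. The *fer* libraries held 9.64, 6.30 and 9.66, and their mean of 8.54 was at least 2.85-fold higher than WT taken at that floor, with an adjusted p of 0.0022 in limma. *XTH25* (AT5G57550), next to *XTH22* on chromosome 5, rose from a mean of 13.7 ± 4.73 to 34.6 ± 8.00 normalized reads (SD, n = 3). The WT libraries held 19.04, 12.1 and 10.0 and the *fer* libraries 39.1, 25.4 and 39.4, without overlap, and limma gave 1.29 ± 0.32 (SE) on the log2 scale at an adjusted p of 0.0097. Without *fer* column 1 or *fer* column 3 its adjusted p was 0.064 or 0.073, and without the trend it was 0.064.

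**Figure D3:**
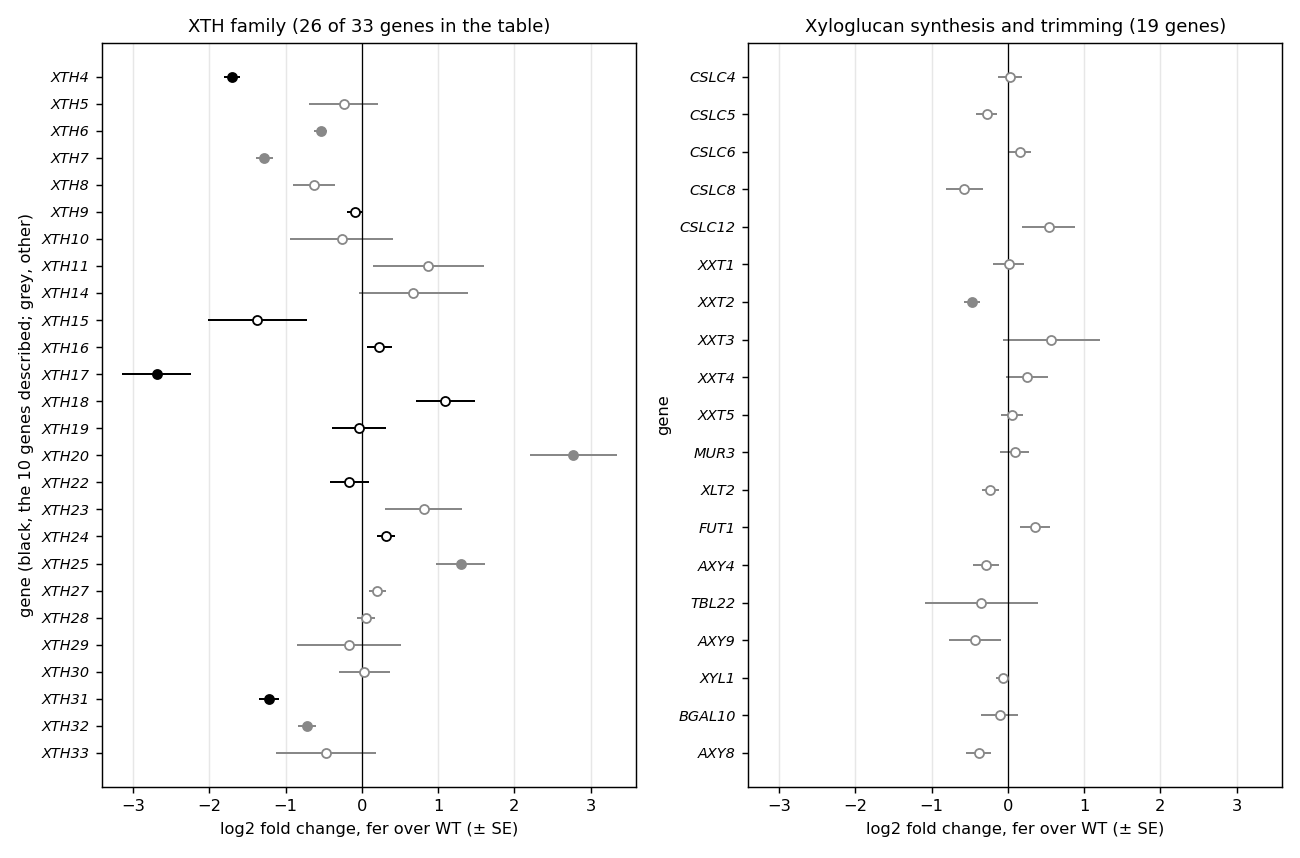
Log2 fold change of *fer* over WT with its SE for the 26 *XTH* genes in the table (left; black, the 10 members; grey, the others) and for 19 genes of xyloglucan synthesis and trimming (right). Filled points are genes with an adjusted p under 0.05 in limma over all genes: 8 on the left, 6 of them below 0, and 1 on the right, *XXT2*. The 10 members were picked with these values known, so their filling is not evidence for them.

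Ratios between neighbouring copies differed by genotype for some pairs and overlapped for another. On chromosome 4 *XTH24*, *XTH18* and *XTH19* stand in a row with no annotated gene between them, the gaps being 5161 and 1500 bases, and their log2 fold changes were 0.32, 1.09 and -0.03. The ratio of *XTH18* to *XTH19* was 0.595, 0.501 and 0.392 in WT and 1.06, 1.19 and 1.24 in *fer*, so that *XTH18* went from the lower to the higher of the pair in every library. On chromosome 5 *XTH25* and *XTH22* are 565 bases apart. The ratio of *XTH25* to *XTH22* was 0.177, 0.245 and 0.178 in WT and 0.846, 0.436 and 0.502 in *fer*, without overlap. These ratios restate the contrast that was known when the members were picked and were not tested.

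Summed over the 26 genes, XTH transcripts made up 5190, 5428 and 5194 normalized reads in the WT libraries and 3641, 3098 and 3723 in the *fer* libraries. The family sum in *fer* was 66.2% of that in WT, at means of 3487 ± 339 and 5271 ± 136 (SD, n = 3), and the genotypes did not overlap. *XTH7* accounted for 43.5% of the summed falls, *XTH4* for 19.8%, *XTH6* for 18.3% and *XTH31* for 9.32%, whereas *XTH17*, with the lowest log2 fold change of the 26, accounted for 0.985%. The make-up of the family pool differed too. *XTH4* went from 10.7% ± 0.050 of XTH transcripts in WT to 4.98% ± 0.17 in *fer*, and *XTH7* from 28.0% ± 1.18 to 17.5% ± 1.76. *XTH24* went from 6.63% ± 0.50 to 12.6% ± 1.11 and *XTH9* from 7.99% ± 0.74 to 11.4% ± 1.36 (SD, n = 3). The shares of *XTH24* and *XTH9* were thus larger in *fer* although their own log2 fold changes were 0.32 and -0.09.

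**Figure D4:**
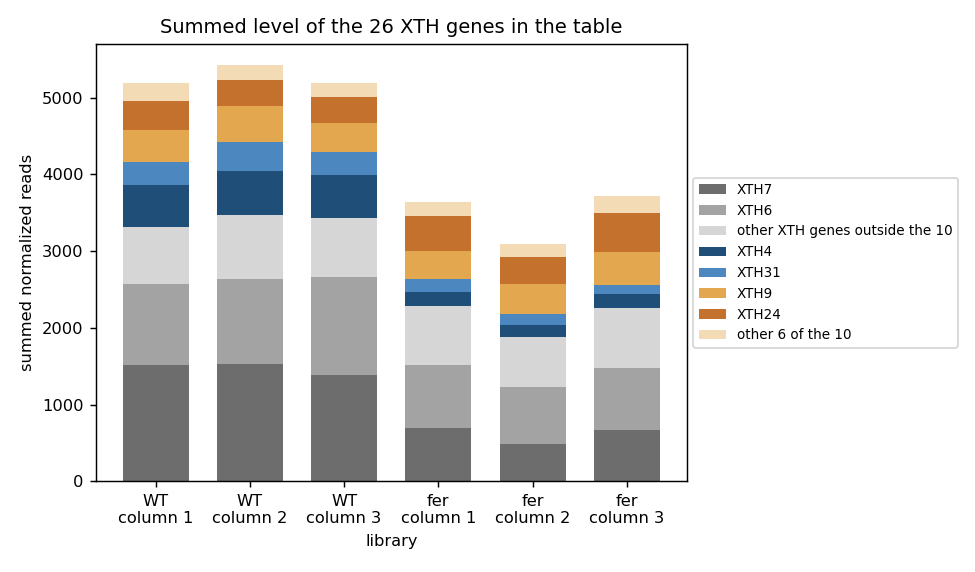
Summed normalized reads of the 26 *XTH* genes in each library, split by gene or group of genes (greys, genes outside the 10; colours, the 10 members). The bars reach 5190 to 5428 in WT and 3098 to 3723 in *fer*, with *XTH7*, *XTH6*, *XTH4* and *XTH31* losing height and *XTH9* and *XTH24* keeping it.

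The genes that make and trim xyloglucan were compared next, to place the XTH genes in their pathway. Of 16 genes for its synthesis, all in the table, 1 was decreased and 0 increased. *XXT2*, which encodes a main xylosyltransferase of the glucan backbone, fell from 507.2, 538.2 and 532.4 to 437.9, 356.3 and 347.9 normalized reads. The fall was -0.47 ± 0.10 (SE) on the log2 scale, and limma gave an adjusted p of 0.0032 with the trend and 0.12 without it. The 5 *CSLC* genes for the backbone gave 0 calls, with 1 gene of the 5 at an unadjusted p under 0.05 in limma, beside 27.1% of all genes, and log2 fold changes from -0.57 for *CSLC8* to 0.54 for *CSLC12*. Of the 3 genes for glycosidases that trim the polymer in the wall, *XYL1*, *BGAL10* and *AXY8*, 0 were called and 1 had an unadjusted p under 0.05, again beside 27.1% of all genes, at log2 fold changes of -0.07, -0.11 and -0.38. Together 5.26% of the 19 genes were called, against 14.6% of all genes, and their median was -0.07.

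The labels and tissue were checked once. *FER* transcript in *fer* was 2.80% of that in WT. Mesophyll markers were the highest, and their sum ran from 128888 to 132879 normalized reads in WT and from 98648 to 106604 in *fer*. In limma 3 of 3 were called as decreased, beside 4.52% of all genes. Summed vascular markers ran from 732.7 to 750.0 and from 711.4 to 752.0, with 1 gene of 4 (*IRX3*) increased, beside 10% of all genes. Guard cell markers ran from 413.4 to 453.4 and from 372.7 to 455.5. Of the 3 root markers 2 were in the table, with sums from 1.02 to 10.4 in WT and from 3.39 to 10.5 in *fer*, and of the 3 flower markers 1 was, with sums of at most 3.01 and 1.06. The lower sum is one of marker transcripts, not a measure of mesophyll amount, and its part in the XTH results was not tested.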

How the data were processed

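Rosette leaf RNA of 3 WT and 3 *fer* samples was sequenced with QuantSeq in 2 runs per library, which the authors merged. The authors aligned 50-base reads (mismatch limit 0.6 of the length) to TAIR10 with STAR and counted them with htseq-count. edgeR is named in the processing notes, and use of strand is not given in the sources used here. What the authors deposited is a signal: TMM-normalized reads on a common library size (4523902 to 4526129 per library) and filtered for low genes. Low values lie near steps of single reads that shift from gene to gene, so whole reads could not be recovered. The study's methods give a mean read number over samples, but the depth of each library is unknown, and no counting interval is given. A deposited column of log2 fold changes, the authors' own comparison, was not used. Columns carry the genotype but no replicate number, and columns 1 to 3 follow the table's order. The design names biological replicates. For the proteomics the study's methods describe pools of whole rosettes, with more rosettes per *fer* pool, and for RNA the number of plants per sample is not stated separately. The p-values set each difference against the spread between these samples, which limma moderates with the trend over genes of similar level. They therefore rest in part on other genes.

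Values were compared as log2(value + 1) with limma 3.58.1 in R 4.3.3 (eBayes with trend), with two-sided p-values adjusted by Benjamini and Hochberg's method across the 20754 genes. A pseudocount of 1 understates the changes of low genes. The code was tested on simulated data. An exact permutation test of 3 against 3 libraries cannot go below p = 0.1. The members and gene lists were chosen with earlier results of these data known. Named genes were all members, FER, every other XTH gene called and every called gene of xyloglucan synthesis and trimming (at most 4). *AT4G14120*, *IRX3*, *CSLC8* and *CSLC12* were added after their values were seen. Symbols matched RefSeq for 30 of the 33 XTH genes, and the other 3 carry older names there. Positions and sequences are from TAIR10.1, with Biopython 1.88 for alignments. The alternatives tried were quantile normalization, scaling by the median of ratios, limma with no trend, 0.1 as pseudocount, a minimum mean of 5, an adjusted p under 0.01 and leaving out each library.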

Additional observations from a re-analysis of the deposited data

How the results depend on the processing

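As a description, since these genes were selected on the same values, the log2 fold changes of *XTH4*, *XTH17* and *XTH31* over the 11 alternative fits were -1.80 to -1.62, -3.10 to -2.33 and -1.31 to -1.11. The median of the 10 members was -0.28 under quantile normalization and ran from -0.25 to -0.055 with 1 library left out. For all genes the median, 0.10 as deposited, was 0.007 with median of ratios scaling and -0.04 with quantile normalization. Of the XTH family, 6 genes were decreased in every fit that left out a library and 5 in limma without the trend. The increased count of 2 was 1 with the filter at a mean of at least 5, which removes *XTH20*, and 1 to 3 with 1 library left out, being 1 without *fer* column 1 or *fer* column 3. Of the synthesis and trimming genes, 2 were called under quantile normalization and 0 in limma without the trend. Over all genes 3021 were called, 2083 increased and 938 decreased. The counts were 1130, 908 and 222 without the trend, and 1682, 1190 and 492 at an adjusted p under 0.01. Median of ratios scaling gave 1520 increased and 1438 decreased genes and quantile normalization 1353 and 1450. With 1 library left out, 1907 to 2503 genes were called, 1287 to 1822 increased and 537 to 821 decreased, with fewer samples in each fit. The causes of the other shifts were not tested. No paired analysis was possible because replicate numbers are missing from the table's columns. Low values limit *XTH15*, *XTH17* in *fer*, *XTH18* in WT and *XTH20* in WT.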
